A study of Homo sapiens with 4 samples.

Results

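The 10 genes described here encode receptors for the amine transmitters dopamine (DRD2, DRD3 and DRD4), serotonin (HTR1A, HTR1D, HTR2A and HTR7), histamine (HRH1) and noradrenaline (ADRA1B and ADRA2A). They were picked by symbol, with no measured value in the rule, though earlier results of these data were known. All 10 were found among the 37468 features of the tables. They were measured in MSTO-211H, a human pleural mesothelioma line of wild-type genotype, in 4 single-cell RNA libraries. The line was kept in serum-free suspension culture, and the labels call its cells mesothelioma-initiating. Control cells received vehicle and no irradiation, Radiation cells vehicle and 4 Gy, Drug cells 10 µM QTP and no irradiation, and Drug_Radiation cells 10 µM QTP and 4 Gy. QTP was given the day before irradiation, and cells were collected 48 h after it. Each group is 1 library of pooled cells from 1 line, so no difference has a replicate check and no test was made. The series title speaks of blocking dopamine receptors together with radiotherapy, and the question asked here is which amine receptor transcripts these cells held.

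Amine receptors sit in the cell membrane, span it by 7 helices and signal through G proteins. The D2-like dopamine receptors DRD2, DRD3 and DRD4, the serotonin receptors HTR1A and HTR1D and the adrenergic receptor ADRA2A couple to inhibitory G proteins that lower cyclic AMP. HTR2A, HRH1 and ADRA1B couple to Gq proteins that activate phospholipase C, and HTR7 couples to the stimulatory G protein that raises cyclic AMP. Many drugs used in psychiatry bind several of these receptors at once, and transcripts of such receptors are usually scarce even in tissues that use them.

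The libraries held 2425 to 6990 cells after filtering and differed widely in depth. Nuclear-encoded unique molecular identifiers (UMIs, each standing for 1 captured transcript) summed to 8948054 for Control, 14331904 for Radiation, 87195885 for Drug and 141608005 for Drug_Radiation, with medians of 2318, 5299, 20405 and 18024.5 UMIs per cell. Treatment with QTP cannot be told apart from depth, or from a batch of library making. Levels are UMIs scaled to 1000000 nuclear-encoded UMIs per library (CPM), in which 3 UMIs, the limit that a count of 0 allows, correspond to 0.335, 0.209, 0.0344 and 0.0212 CPM in the same order. All intervals are at 95% and cover counting error only. No cell barcode was shared between libraries. The keratins KRT8 and KRT18 made up most of the mesothelial marker list, whose sum was 4605, 5632, 5132 and 4997 CPM, while UPK3B was at 0 in Control and Radiation. CALB2 had 27.6, 31.5, 49.2 and 32.1 CPM, and MSLN had 8.27, 12.2, 13.2 and 14.0. WT1 had at most 1.89 CPM, KRT19 0.390, UPK3B 0.233, KRT5 0.126 and PDPN 0.112. Of the markers of other cell types, the endothelial list summed to at most 1.18 CPM. The leukocyte list summed to 16.8, 41.9, 40.6 and 39.9 CPM, nearly all of it from CD68 (16.2, 41.4, 39.8 and 39.3 CPM), while PTPRC had at most 0.335 CPM and LYZ and MS4A1 were at 0 in Control and Radiation. Fibroblast markers, led by LUM, summed to 25.9 to 40.8 CPM. Neuronal markers, led by TUBB3 and with SLC17A7 at 0 in Control and Radiation, summed to 80.2, 124, 161 and 150 CPM. SNAP25 had 13.4, 15.4, 22.9 and 18.0 CPM, SYT1 9.05, 7.68, 12.0 and 10.2, and GAD1 8.72, 9.77, 11.0 and 9.70. STMN2 and GAP43 had at most 0.275 and 0.264 CPM. The sums of all lists but the endothelial one were lowest in Control, as were the receptors HRH1 and HTR1D. The part of any marker list in the receptor values was not tested.

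The upstream sequence of 4 of the receptor genes is shown because these genes span the range of levels found below. HTR1D and HRH1 were the most abundant, HTR1A had no UMI in any library, and ADRA2A had 6 UMIs over all 4 libraries. Each stretch is the 150 bases just before an annotated transcription start in RefSeq (GRCh38.p14), 5′ to 3′ on the gene's own strand, with every CG dinucleotide in capitals. The stretches are chr1:23217503-23217652 on the minus strand for HTR1D, chr3:11154343-11154492 on the plus strand for HRH1, chr5:63962446-63962595 on the minus strand for HTR1A and chr10:111076879-111077028 on the plus strand for ADRA2A.
HTR1D: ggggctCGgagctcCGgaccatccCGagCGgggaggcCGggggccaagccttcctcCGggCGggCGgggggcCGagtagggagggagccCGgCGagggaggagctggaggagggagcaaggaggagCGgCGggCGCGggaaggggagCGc
HRH1: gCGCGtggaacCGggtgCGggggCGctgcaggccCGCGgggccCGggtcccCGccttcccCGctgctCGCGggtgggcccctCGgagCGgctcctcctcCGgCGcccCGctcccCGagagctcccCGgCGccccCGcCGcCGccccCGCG
HTR1A: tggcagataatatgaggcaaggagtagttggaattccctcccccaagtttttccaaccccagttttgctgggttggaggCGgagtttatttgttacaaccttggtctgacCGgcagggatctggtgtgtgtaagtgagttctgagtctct
ADRA2A: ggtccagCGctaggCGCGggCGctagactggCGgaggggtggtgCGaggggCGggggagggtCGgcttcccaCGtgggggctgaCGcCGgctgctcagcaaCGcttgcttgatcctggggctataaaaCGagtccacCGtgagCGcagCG
The HTR1D stretch held 16 CG dinucleotides, the HRH1 stretch 25, the ADRA2A stretch 16 and the HTR1A stretch 2. A window of 250 bases before the start was called CpG-rich when over 50% of its bases were G or C and its CG count was over 0.6 of that expected from its G and C content. RefSeq windows were matched for 9 of the 10 genes, all but DRD2, and 6 of the 9 had a CpG-rich window, namely HTR1D, HRH1, DRD4, HTR7, ADRA1B and ADRA2A. HRH1 has 3 such windows, of which only the one printed was CpG-rich, and by window 6 of the 13 matched windows were. Among all 35114 windows 44.8% were CpG-rich, and for genes at 5 CPM or more in Drug_Radiation the share was 87.1%, against 14.3% for genes at 0 there. Thus both abundant receptors had the kind of window most expressed genes had, but so did ADRA2A, which was close to undetected.

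HRH1 and HTR1D carried almost all of the receptor UMIs. Of all UMIs of the 10 genes (176, 354, 2709 and 4138 in Control, Radiation, Drug and Drug_Radiation) they gave 93.8%, 94.4%, 95.2% and 95.5%. The other 8 genes together had 11, 20, 129 and 188 UMIs, or 1.23, 1.40, 1.48 and 1.33 CPM. Members with at least 3 UMIs numbered 4 of 10 in Control and 4 in Radiation, against 45.8% and 49.1% of all nuclear features, and 8 in Drug and 9 in Drug_Radiation, against 70.6% and 73.4%. Members and all features alike reached this count more often in the deeper libraries Drug and Drug_Radiation. With 10 members, the distance of their share from that of all features was not tested.

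HRH1, the histamine H1 receptor that mediates the response to histamine in smooth muscle and vessels, was counted 85 times in Control, and Radiation gave 185 UMIs, Drug 1363 and Drug_Radiation 1852. The levels were 9.50 CPM (7.59 to 11.7), 12.9 (11.1 to 14.9), 15.6 (14.8 to 16.5) and 13.1 (12.5 to 13.7) in this order of the libraries. Control was the lowest library and Drug the highest, and the interval of Radiation overlapped those of all the others. HRH1 lies on chromosome 3 from 11137093 to 11263557 of GRCh38 (GENCODE 29, plus strand), and its whole coding sequence is in 1 of the 3 exons of its longest coding transcript. The antisense gene AC083855.2 lies within it and had 39, 77, 784 and 1006 UMIs. It shares 0 exon bases with HRH1, but the strand counted is not given in the sources used here, so reads from introns of HRH1 and reads of the antisense gene cannot be told apart.

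HTR1D, an inhibitory serotonin receptor best known as a target of migraine drugs on trigeminal nerves, had 80, 149, 1217 and 2098 UMIs in Control, Radiation, Drug and Drug_Radiation. Its levels were 8.94 CPM (7.09 to 11.1), 10.4 (8.79 to 12.2), 14.0 (13.2 to 14.8) and 14.8 (14.2 to 15.5). Both libraries with QTP stood above both without it, and the intervals of these pairs did not overlap, while within each pair they did. HTR1D lies on chromosome 1 from 23191895 to 23194729 (minus strand) and has 1 exon in GENCODE 29, whereas RefSeq places its start farther upstream.

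The order of the leading pair depended on the library and on the scale. In CPM HRH1 was above HTR1D in Drug, where the intervals just failed to overlap, and below it in Drug_Radiation, and in Control and Radiation their intervals overlapped. Per kilobase of the longest coding transcript, HTR1D was higher in every library, at 3.15, 3.67, 4.92 and 5.23 CPM per kb against 2.02, 2.74, 3.32 and 2.78 for HRH1. A 3-prime kit counts transcripts by their ends, so the scale per kilobase is given only to allow a comparison by length. HRH1 exceeded 81.1% to 83.6% of all nuclear features across the 4 libraries, and HTR1D 80.5% to 83.2%.

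**Figure D1:**
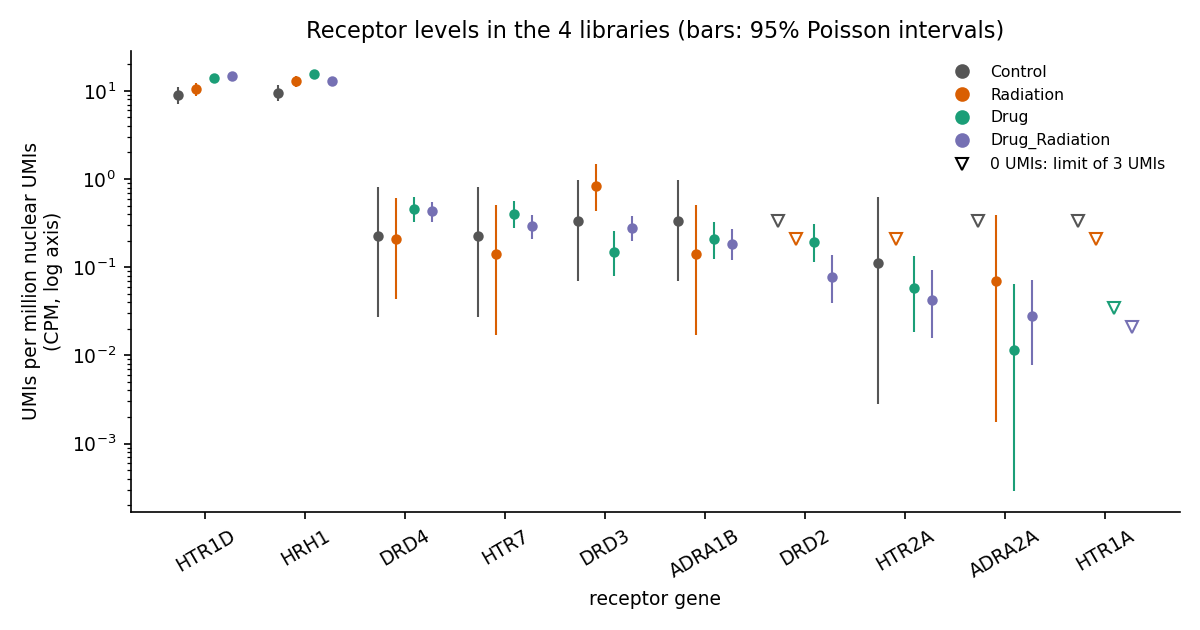
Levels of the 10 receptor genes in the 4 libraries, in CPM on a log axis, with exact 95% Poisson intervals; open triangles mark genes with 0 UMIs at the limit of 3 UMIs. HTR1D and HRH1 sit between 8.94 and 15.6 CPM, and every other gene lies under 1 CPM in every library.

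Among the dopamine receptors, DRD4 was the most abundant in the libraries with QTP. DRD4, whose gene on chromosome 11 (637293 to 640706, plus strand) is the shortest of the dopamine receptor genes here, had 2, 3, 40 and 61 UMIs in Control, Radiation, Drug and Drug_Radiation. Its levels in the libraries with QTP were 0.459 CPM (0.328 to 0.625) and 0.431 CPM (0.330 to 0.553). No cell held more than 1 of these UMIs in Drug or in Drug_Radiation, since 40 and 61 cells carried them. The 5 UMIs of the libraries without QTP allow no order between those libraries.

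DRD2, the receptor that most antipsychotic drugs block, had 0 UMIs in Control and Radiation, 17 in Drug and 11 in Drug_Radiation. That is 0.195 CPM (0.114 to 0.312) in Drug and 0.0777 CPM (0.0388 to 0.139) in Drug_Radiation. The level in Drug is under the limit of 0.335 CPM in Control, and the level in Drug_Radiation is under the limit of 0.209 CPM in Radiation. A difference between cells with and without QTP was therefore not detectable at this depth. DRD2 lies on chromosome 11 from 113409615 to 113475691 (minus strand).

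DRD3, a receptor of limbic brain regions on chromosome 3 (114128652 to 114199407, minus strand), had 3, 12, 13 and 39 UMIs, or 0.335, 0.837, 0.149 and 0.275 CPM. Its UMIs were gathered in few cells. In Radiation 10 of the 12 UMIs came from 2 cells, which held 7 and 3, and in Drug_Radiation 16 of the 39 came from 2 cells, which held 8 each. These 4 cells also held 15 to 116 UMIs each of KRT8 and of KRT18, the keratins of this line. In Drug the 13 UMIs came from 13 cells. Without cells of 3 or more DRD3 UMIs, an alternative added after the data were seen, Radiation had 0.140 CPM (2 UMIs) and Drug_Radiation 0.162 CPM (23 UMIs), beside 0.149 CPM in Drug. The excess of each irradiated library over Drug thus rests mostly on those 4 cells. No cell held 3 or more UMIs of DRD2, DRD4, HTR7 or ADRA1B.

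Summed over DRD2, DRD3 and DRD4 there were 5, 15, 70 and 111 UMIs, or 0.559 CPM (0.181 to 1.30), 1.05 (0.586 to 1.73), 0.803 (0.626 to 1.01) and 0.784 (0.645 to 0.944). All 4 intervals overlapped. Cells with any dopamine receptor UMI numbered 4 of 3183, 7 of 2425, 69 of 3802 and 97 of 6990. The D1-like receptors DRD1 and DRD5, which raise cyclic AMP, had 0 UMIs in all 4 libraries.

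HTR1A, the autoreceptor of serotonin neurons (chromosome 5, 63960356 to 63962507, minus strand), had 0 UMIs in every library, which in Drug_Radiation allows up to 3 UMIs in 6990 cells or 0.0212 CPM. AC122707.1 overlaps HTR1A on the same strand and had 0, 0, 4 and 3 UMIs, and since the way of counting is not known, reads of both genes cannot be told apart and the limit is for UMIs assigned to HTR1A. HTR2A, the receptor through which classical hallucinogens act (chromosome 13, 46831550 to 46897076, minus strand), had 1, 0, 5 and 6 UMIs. HTR7, the stimulatory serotonin receptor (chromosome 10, 90740823 to 90857698, minus strand), had 2, 2, 35 and 41 UMIs, which in the libraries with QTP is 0.401 CPM (0.280 to 0.558) and 0.290 CPM (0.208 to 0.393). The serotonin receptors of this list thus ranged from HTR1D, which with HRH1 led the amine receptor genes, to HTR1A, which was not detected.

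ADRA1B, a receptor that contracts smooth muscle in response to noradrenaline (chromosome 5, 159865080 to 159972544, plus strand), had 3, 2, 18 and 26 UMIs, and 0.206 CPM (0.122 to 0.326) and 0.184 CPM (0.120 to 0.269) in the libraries with QTP. On the other strand LINC01847 had 2, 11, 43 and 39 UMIs, and it shares 0 exon bases with ADRA1B. ADRA2A, the inhibitory receptor that limits noradrenaline release (chromosome 10, 111077163 to 111080907, plus strand), had 0, 1, 1 and 4 UMIs. In the deepest library the order was HTR1D, HRH1, DRD4, HTR7, DRD3, ADRA1B, DRD2, HTR2A, ADRA2A and HTR1A, and the intervals of neighbours in that order overlapped throughout, apart from HTR1D with HRH1 and HRH1 with DRD4.

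Low counts were set beside those of the 381 olfactory receptor genes in the tables, which serve as receptor genes of another tissue. Their 95th percentile was 0.112, 0.0698, 0.0803 and 0.0494 CPM in Control, Radiation, Drug and Drug_Radiation, which is 1, 1, 7 and 7 UMIs. Above it lay 6 members in Control and 6 in Radiation, against 50.4% and 54% of all nuclear features, and 7 in Drug and 7 in Drug_Radiation, against 59.2% and 62.5%. The 7 were HTR1D, HRH1, DRD2, DRD3, DRD4, HTR7 and ADRA1B, and in Control and Radiation DRD2 was missing from them. HTR2A, ADRA2A and HTR1A lay at or under the 95th percentile in both libraries with QTP. Olfactory receptor genes were not all silent in the files: OR4D2 had 0.946 CPM in Drug_Radiation, above DRD4 and every other dopamine receptor. OR8J1 had 3.24 CPM in Control (29 UMIs) and 2.37 CPM in Radiation (34 UMIs), above every member there but HRH1 and HTR1D. With the 99th percentile as the limit, 3 members lay above it in Radiation and 4 in Drug.

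**Figure D2:**
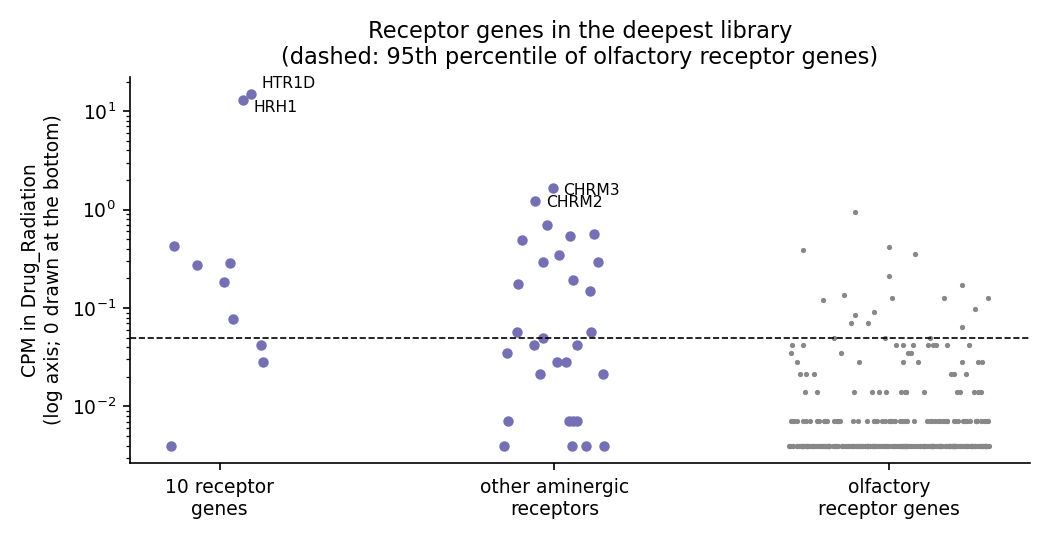
CPM in Drug_Radiation, on a log axis, of the 10 receptor genes, other amine receptor genes of the fixed list and the 381 olfactory receptor genes; genes at 0 are drawn at the bottom. HTR1D (14.8 CPM) and HRH1 (13.1 CPM) lie above every gene of the other groups, while most of the 10 lie within the range of the olfactory receptor genes, whose 95th percentile is the dashed line at 0.0494 CPM.

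The share of cells with a UMI followed depth. HRH1 was seen in 2.51%, 7.01%, 26.8% and 21.9% of the cells of Control, Radiation, Drug and Drug_Radiation, and HTR1D in 2.45%, 5.77%, 24.5% and 23.7%. With every cell thinned to 1000 UMIs, which left out no cell, the shares became 0.886%, 1.23%, 1.46% and 1.27% for HRH1 and 0.802%, 0.957%, 1.30% and 1.39% for HTR1D. Among cells thinned to 6000 UMIs (225 cells in Control, 974 in Radiation and all 3802 and 6990 with QTP) they were 6.75%, 6.76%, 8.23% and 7.32% for HRH1 and 4.95%, 5.59%, 7.44% and 7.97% for HTR1D. At equal depth the shares differed far less between libraries and had the same order as the levels in CPM. No other cell type that should lack these genes was present to give a background share.

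Cells were split into quartiles of depth, and in both libraries with QTP the share of cells with a UMI of either gene grew from the shallowest to the deepest. In Drug the HRH1 level was 16.3, 14.3, 15.5 and 16.1 CPM from the shallowest to the deepest quartile, and the share of cells went from 13.2% to 45.1%. In Drug_Radiation it was 16.2, 12.9, 12.1 and 12.9 CPM, with the shallowest quartile (14.3 to 18.3) above the third quartile (11.0 to 13.3) without overlap of their intervals, and the share went from 13.8% to 35.4%. HTR1D had 13.5, 13.7, 12.7 and 14.9 CPM in Drug and 14.7, 14.0, 15.9 and 14.5 CPM in Drug_Radiation. In Control, where the quartiles held 7 to 45 UMIs of HRH1, its level was 12.9, 4.68, 9.08 and 10.6 CPM, and the share of cells was 1.63% in the shallowest quartile and 0.879% in the next.

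**Figure D3:**
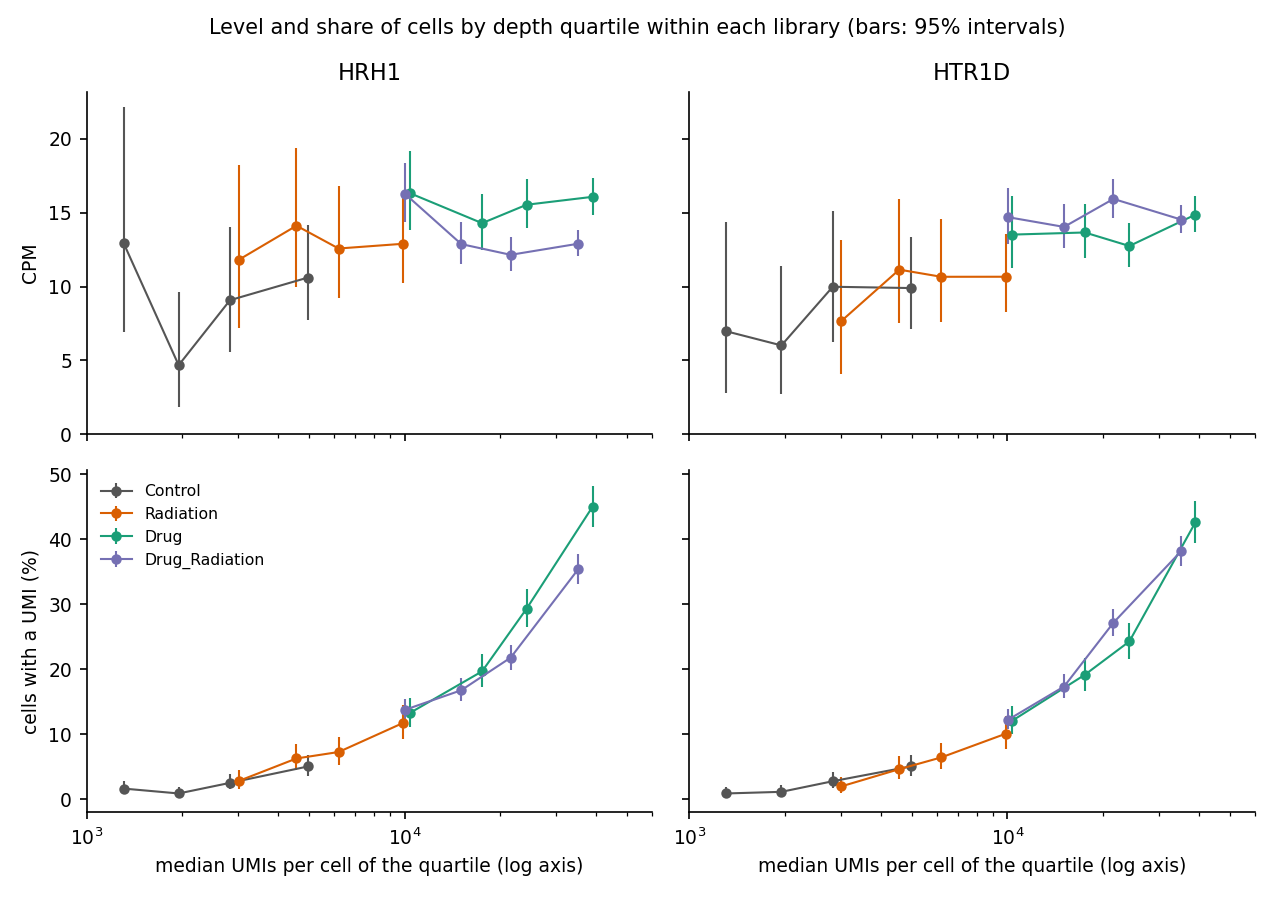
Level in CPM (top) and share of cells with a UMI (bottom) of HRH1 and HTR1D in depth quartiles of each library, against the median UMIs per cell on a log axis, with 95% intervals. The shares are highest in the deepest quartile of Drug (45.1% for HRH1) and rise with depth within each library, apart from HRH1 in Control, where the shallowest quartile (1.63%) is above the next (0.879%). The levels within Drug and Drug_Radiation lie between 12.1 and 16.3 CPM.

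Both receptors were spread over many cells. In Drug_Radiation 1534 cells held HRH1 and 1659 held HTR1D, where 1569 and 1741 would be counted if all cells had the gene at 1 rate per UMI. In Drug 1020 and 933 cells held them, where 1090 and 995 would be counted at 1 rate. Cells with 2 or more UMIs of HRH1 and of HTR1D numbered 260 and 345 in Drug_Radiation, against 245 and 303 at 1 rate. In Drug they numbered 250 and 227, against 223 and 185. The UMIs were thus gathered in somewhat fewer cells than 1 rate gives, which the counting intervals do not take into account. The most UMIs of HRH1 in a cell were 9 in Drug and 7 in Drug_Radiation, and of HTR1D 5 in each. Cells with both receptors numbered 2, 12, 319 and 421 in Control, Radiation, Drug and Drug_Radiation. In the deepest quartile of Drug, HTR1D was seen in 44.9% (40.1 to 49.7) of cells with HRH1 and 40.8% (36.6 to 45.2) of cells without it, and in that of Drug_Radiation in 39.1% (35.2 to 43.1) and 37.7% (34.8 to 40.6). These intervals overlapped, so neither receptor marked cells with more of the other beyond counting error at this depth. None of the 10 genes was seen in 94.8%, 87.3%, 55.4% and 59.0% of cells.

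Radiation without QTP was compared in Radiation against Control. A gene entered a comparison when the pooled rate predicted at least 6 UMIs in the smaller library, and was counted when its CPM differed 2-fold or more. Of the 10 members only HRH1 and HTR1D entered, and 0 of the 2 differed 2-fold, against 7.01% of all 14489 genes that entered (4.06% higher and 2.95% lower). HRH1 was 1.36-fold higher in Radiation (1.05 to 1.78) and HTR1D 1.16-fold higher (0.880 to 1.55), so that the interval of HTR1D included no difference. The median log2 ratio of all genes was 0.10, and relative to it HRH1 stood 0.34 and HTR1D 0.12 higher. Cells of 6500 to 15000 UMIs numbered 173, 770, 1023 and 2533 in Control, Radiation, Drug and Drug_Radiation, with medians of 7775, 8566, 10833 and 11462 UMIs. This range lay above the median depth of Control and Radiation and below that of the libraries with QTP. Depth was closer there, but deeper cells of the former are set against shallower cells of the latter. In this range HRH1 had 13.0 CPM in Control (18 UMIs) and 12.8 CPM in Radiation (87 UMIs), and the log2 ratio was -0.02 (-0.77 to 0.80).

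Radiation with QTP was compared in Drug_Radiation against Drug, the deepest pair, in which 7 members entered. Of the 7, only DRD2 differed 2-fold, being lower, while 5.84% of all 22788 genes did so (2.17% higher and 3.67% lower). DRD2 had 17 UMIs in Drug and 11 in Drug_Radiation, a ratio of 0.398 (0.169 to 0.902), and it no longer entered when 20 predicted UMIs were asked for or in cells of 6500 to 15000 UMIs. With TMM scaling its log2 ratio went from -1.33 to -1.15 (-2.39 to 0.03), an interval that included no difference. DRD3 had a ratio of 1.85 (0.965 to 3.77), which passed 2-fold with TMM and median-of-ratios scaling (log2 ratio 1.07 with TMM) and became 1.09 (0.529 to 2.34) without the cells of 3 or more DRD3 UMIs. HRH1 was lower in Drug_Radiation, with a ratio of 0.837 (0.780 to 0.898), close to the median log2 ratio of all genes of -0.16, below which it lay by 0.10. HTR1D had a ratio of 1.06 (0.989 to 1.14) and stood 0.24 above that median on the log2 scale. DRD4 had 0.939 (0.620 to 1.44), HTR7 0.721 (0.448 to 1.17) and ADRA1B 0.889 (0.469 to 1.72), all with intervals that included no difference. In cells of 6500 to 15000 UMIs, where HTR7 had 9 UMIs in Drug and 7 in Drug_Radiation, its log2 ratio was -1.73 (-3.39 to -0.14), an interval that left out no difference. The sign of the DRD4 and ADRA1B ratios turned with TMM scaling (log2 0.09 and 0.01).

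QTP without radiation was compared in Drug against Control. Again only HRH1 and HTR1D entered, and 0 of the 2 differed 2-fold, against 15.8% of all 14978 genes (13.3% higher and 2.43% lower). HRH1 was 1.65-fold higher in Drug (1.32 to 2.07) and HTR1D 1.56-fold higher (1.24 to 1.98). The median log2 ratio of all genes was 0.49, so relative to it HRH1 stood 0.23 and HTR1D 0.15 higher. With TMM scaling, which takes most of that shift out, the log2 ratios were 0.32 (0.0034 to 0.65) for HRH1 and 0.24 (-0.08 to 0.59) for HTR1D. Most of the difference in CPM was thus shared with the typical gene.

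QTP on irradiated cells was compared in Drug_Radiation against Radiation, which shares no library with the preceding comparison. Of the 2 members that entered 0 differed 2-fold, against 8.38% of 15970 genes (6.37% higher and 2.02% lower). HTR1D was 1.43-fold higher in Drug_Radiation (1.21 to 1.69), and its log2 ratio of 0.51 stood 0.28 above the median of all genes of 0.23. HRH1 had a ratio of 1.01 (0.871 to 1.18) and lay 0.21 below that median, with a sign that turned with the scaling (log2 -0.12 with TMM). HTR1D was thus higher with QTP in both arms, also among cells of 6500 to 15000 UMIs, where the 4 libraries gave 8.65, 10.9, 13.5 and 14.9 CPM from 12, 74, 140 and 398 UMIs. The interval at that depth included no difference in Drug against Control (log2 0.64, -0.21 to 1.63) but not in Drug_Radiation against Radiation (0.46, 0.094 to 0.83).

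The combination was compared in Drug_Radiation against Control, which shares its libraries with the other comparisons. Of the 2 members that entered 0 differed 2-fold, against 12.8% of 14719 genes (10.3% higher and 2.53% lower). HTR1D was 1.66-fold higher (1.33 to 2.10) and HRH1 1.38-fold higher (1.11 to 1.73), where the median log2 ratio of all genes was 0.36, and they stood 0.37 and 0.10 above it.

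**Figure D4:**
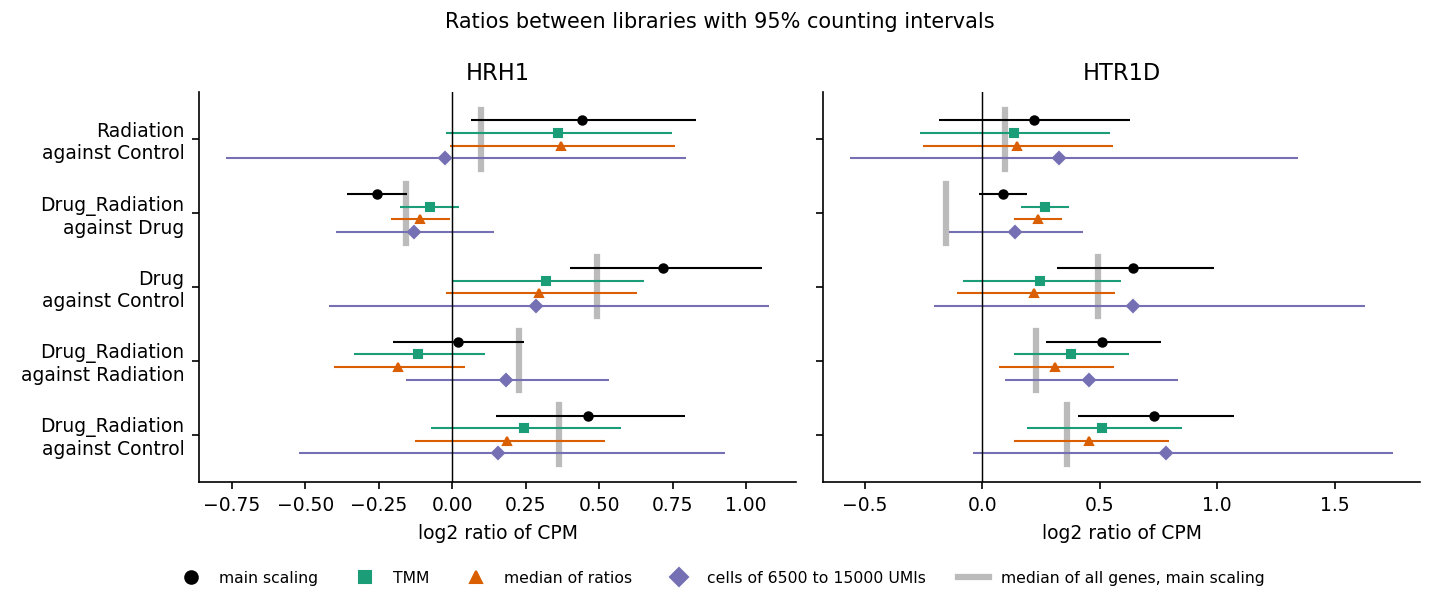
Log2 ratios of HRH1 and HTR1D in the 5 comparisons with 95% counting intervals, under the main scaling, TMM, median-of-ratios scaling and in cells of 6500 to 15000 UMIs; the grey bar is the median of all genes under the main scaling. HTR1D lies right of 0 in both QTP comparisons under all 4 settings, and HRH1 changes side in Drug_Radiation against Radiation.

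The genes whose pattern over the 4 libraries was nearest to each leading receptor were found by the distance between log2 CPM values centred on their mean, among 14761 genes. For HTR1D these were the growth kinase MTOR (8.05, 9.49, 12.7 and 13.6 CPM), the lipopolysaccharide-binding protein LBP and the peptidase THOP1, at distances of 0.0200, 0.0298 and 0.0312. For HRH1 these were the zinc finger gene RLF (6.03, 8.16, 9.92 and 8.35 CPM), the G protein beta subunit GNB4 and the RNA methyltransferase METTL16, at 0.00940, 0.0117 and 0.0202. With 4 libraries such likeness is common: 855 genes lay within 0.2 of HTR1D and 1413 within 0.2 of HRH1, while the receptors lay 0.357 from each other.

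A fixed list held 31 other amine receptor genes, muscarinic acetylcholine receptors included, and CHRM3, CHRM2, HTR2C, CHRM4 and ADRA1D were among those with the highest levels in Drug_Radiation. All 5 were under the levels of HRH1 and HTR1D. CHRM2, the muscarinic receptor that slows the heart, had 45, 82, 121 and 175 UMIs, or 5.03, 5.72, 1.39 and 1.24 CPM, and was lower with QTP in both arms, with ratios of 0.276 (0.194 to 0.398) and 0.216 (0.165 to 0.284). Among cells of 6500 to 15000 UMIs these ratios were 0.134 (0.0526 to 0.340) and 0.202 (0.131 to 0.309). CHRM3, a muscarinic receptor of glands and smooth muscle that couples to Gq, had 3, 10, 215 and 233 UMIs and was higher with QTP, with ratios of 7.35 (2.48 to 35.9) and 2.36 (1.26 to 4.98). In cells of 6500 to 15000 UMIs the second of these was 1.57 (0.698 to 4.13). HTR2C had 5, 5, 47 and 98 UMIs. CHRM4 (5, 1, 46 and 80 UMIs) and ADRA1D (5, 1, 27 and 76 UMIs) were counted as 2-fold higher in Drug_Radiation against Radiation, with ratios of 8.10 (1.41 to 324) and 7.69 (1.34 to 308) that rest on 1 UMI each in Radiation. The 76 ADRA1D UMIs of Drug_Radiation came from 38 cells, 7 of which held 3 or more, with up to 19 in a cell. Of the list, 4 genes entered Drug against Control, with 1 higher (CHRM3) and 1 lower (CHRM2), and 7 entered Drug_Radiation against Radiation, with 3 higher and 1 lower. Of all genes, 13.3% were higher and 2.43% lower in the first comparison, and 6.37% and 2.02% in the second. The list's median log2 ratio was 0.53 and 0.99, beside 0.49 and 0.23 for all genes. For radiation, CHRM5 was counted as lower without QTP, 1 of 3 that entered, against 2.95% of all genes. Its ratio was 0.364 (0.121 to 1.003) from 12 and 7 UMIs, an interval that included no difference. With QTP, HRH4 (12 UMIs in Drug and 6 in Drug_Radiation) and HTR1E (11 and 8) were counted as lower, 2 of 15, from these low counts. Of all genes, 3.67% were lower in that comparison.

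Most genes that act downstream of the receptors were detected well enough to compare. Of 11 G protein alpha subunits, 9 entered Drug against Control and 10 entered Drug_Radiation against Radiation. Their medians were 0.07 and 0.16, beside 0.49 and 0.23 for all genes. GNAI2, an inhibitory subunit, had 64.7, 58.2, 67.9 and 74.4 CPM in Control, Radiation, Drug and Drug_Radiation, and GNAS, the stimulatory subunit, had 185, 132, 137 and 130. The only subunit past 2-fold in these comparisons or those of radiation was GNA14, of the Gq class. It was lower in Drug_Radiation against Radiation (0.400, 0.248 to 0.671), 1 of 10 against 2.02% of all genes. In cells of 6500 to 15000 UMIs the ratio was 0.140 (0.0607 to 0.307). In Drug against Control GNA14 had 0.520 (0.296 to 0.974) and passed 2-fold with TMM scaling (0.394). The highest ratios were 1.72 for GNAL without radiation and 1.76 for GNA11 with it.

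Of 26 effectors of cyclic AMP and phospholipase C, 21 entered each QTP comparison. In Drug against Control 4 were 2-fold higher and 0 lower, against 13.3% and 2.43% of all genes that entered. In Drug_Radiation against Radiation 1 was higher and 0 lower, against 6.37% and 2.02%. The medians were 0.48 and 0.51, beside 0.49 and 0.23 for all genes. How far the list's share lay from that of all genes was not tested. The adenylyl cyclase ADCY6 had 62, 196, 1441 and 2730 UMIs, and was 2.39-fold (1.85 to 3.13) and 1.41-fold (1.22 to 1.64) higher with QTP. TMM scaling brought the first of these to 1.81. The cyclase ADCY2 and the kinase subunit PRKAR2B were called higher in Drug against Control from 2 UMIs each in Control, and PDE4B, which breaks down cyclic AMP, from 4. In Drug_Radiation against Radiation the call was PDE4C, with a ratio of 2.04 (1.01 to 4.80), while ADCY2 was lowest at 0.538. The phospholipase PLCB4 was lowest in Drug against Control, at 0.774. For radiation, ADCY2 was higher without QTP (1 of 18 that entered, against 4.06% of all genes). PLCB2 was lower with QTP (1 of 24, against 3.67%).

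Of 16 genes of receptor desensitisation, kinases, arrestins and RGS proteins that switch G proteins off, all entered. RGS16 was 2.26-fold higher (1.70 to 3.06) in Drug against Control and was the only call on the list in any comparison, and TMM scaling brought it to 1.71. Of all genes, 13.3% were higher in that comparison. The medians were 0.61 and 0.16 with QTP, beside 0.49 and 0.23 for all genes. With radiation the highest was GRK5, a receptor kinase (1.70), and the lowest RGS10 (0.870). RGS4 was abundant, with 81.0, 112, 130 and 120 CPM.

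Genes that make, carry and break down amines were mostly near 0. Of 21 on the list 4 entered the QTP comparisons, all for transport or breakdown. MAOA, the monoamine oxidase, had 1.90, 3.14, 4.79 and 4.29 CPM. MAOA was 2.52-fold higher (1.56 to 4.37) in Drug against Control, 1.91-fold with TMM scaling, and 1.37-fold (1.01 to 1.89) higher in Drug_Radiation against Radiation, where TMM scaling gave 1.24 (0.918 to 1.72). In cells of 6500 to 15000 UMIs these MAOA ratios were 1.29 (0.401 to 6.64) and 0.828 (0.537 to 1.31), so that the second turned in direction. The lowest of the 4 were the transporter SLC29A4 (1.26) without radiation and HNMT, which methylates histamine (0.935), with it. TH, the first enzyme of dopamine synthesis, had 3, 2, 20 and 25 UMIs, DDC, which makes both dopamine and serotonin, had 5, 5, 35 and 40, and HDC, which makes histamine, had 0, 0, 5 and 6. Of 12 genes known to respond to cyclic AMP, 10 entered each QTP comparison. In either, 0 differed 2-fold, against 15.8% and 8.38% of all genes. The list's medians were 0.29 and 0.27, beside 0.49 and 0.23 for all genes. The highest were ATF3 without radiation (1.98, 1.53 to 2.60) and EGR1 with it (1.82, 1.59 to 2.09), and the lowest were FOSB (0.808) and FOS (0.808). For radiation with QTP, PPARGC1A was higher (2.04, 1.08 to 4.13) from 13 and 43 UMIs, 1 of 12 against 2.17% of all genes.

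**Figure D5:**
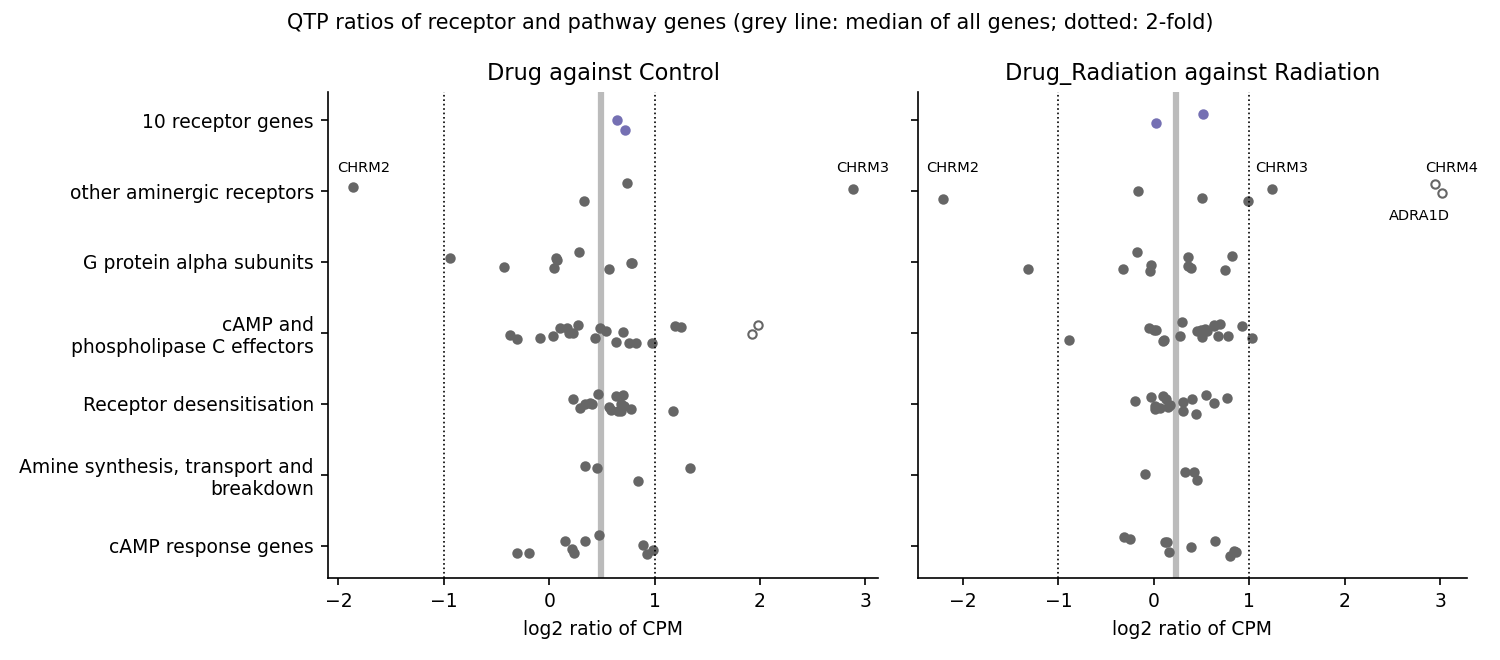
Log2 ratios of CPM in both QTP comparisons for genes that entered, by list; open circles rest on fewer than 3 UMIs in a library, the grey line is the median of all genes and the dotted lines mark 2-fold. HRH1 and HTR1D lie near the median of all genes, and CHRM2 and CHRM3 lie past 2-fold on opposite sides in both panels.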

How the data were processed

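Single-cell 3-prime libraries of 4 groups, 1 library each, were analysed from raw UMI counts, which the authors deposited per gene and barcode without normalization. The labels name a PIPseq V T2 kit in the protocol and another platform in the description, so the kit is not settled. The submitters' processing notes list Seurat 4.3.3 and hg38 without saying for which step. Not given in the sources used here are the aligner, counter, annotation and strand. Groups came from the labels. Barcodes were kept from 500 UMIs and 300 genes upward if mitochondrial UMIs were under 20%, which left out 1, 3, 4 and 16 barcodes. No doublet caller was run, so doublets of cells of this line may remain, also among cells with both receptors or with many UMIs.

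UMIs were summed per library and divided by the nuclear-encoded total. Intervals at 95% are exact Poisson (CPM), exact conditional binomial (ratios) and exact Clopper-Pearson (shares). For calls, counts under 3 were raised to 3. The median ratio is over all genes that entered. Shares at equal depth are expected values under sampling without replacement. Alternatives were all barcodes, a stricter filter (1000 UMIs, 500 genes, 10% mitochondrial), TMM (edgeR 4.0.16), median of ratios (DESeq2 1.42.0), totals with mitochondrial UMIs, cells of 6500 to 15000 UMIs, other limits on low counts, and, added after the data were seen, DRD3 without its richest cells. The scripts were tested on simulated data. Named genes were all members, 5 of the 6 other amine receptors highest in Drug_Radiation, the extremes of each list with QTP, genes past 2-fold, and the 3 nearest patterns. OR4D2, OR8J1, GNAI2, GNAS, RGS4, TH, DDC and HDC were named after their values were seen. Some items chosen by these rules are not reported here. Members and lists were chosen with earlier results of these data known. Positions are from GENCODE 29 on GRCh38, of which hg38 is another name. Calculations used Python 3.11.15, numpy 2.4.6, scipy 1.17.1, pandas 2.3.3, matplotlib 3.10.9 and R 4.3.3.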

Additional observations from a re-analysis of the deposited data

Results flagged for a closer look

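HRH1 had a log2 ratio of 0.44 in Radiation against Control and -0.26 in Drug_Radiation against Drug, so radiation went with a higher level without QTP and a lower level with it. The medians of all genes were 0.10 and -0.16, and relative to them HRH1 stood 0.34 higher and 0.10 lower. The counting intervals of both ratios do not overlap, but with 1 library per group the difference between the arms was not tested. Its value with QTP minus that without was -0.70 (-1.08 to -0.32, counting error only), and for HTR1D -0.13 (-0.54 to 0.27). Among cells of 6500 to 15000 UMIs the HRH1 ratio without QTP was -0.02 (-0.77 to 0.80) and with QTP -0.13 (-0.40 to 0.14). The opposite signs were thus not seen there, but the first interval, from 173 Control cells, also includes the 0.44 of all kept cells. With TMM scaling they were 0.36 (-0.02 to 0.75) and -0.08 (-0.18 to 0.02), each with an interval that includes no difference. With median-of-ratios scaling they were 0.37 (-0.007 to 0.76) and -0.11 (-0.21 to -0.006), and only the interval without QTP includes no difference.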

How the results depend on the processing

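No paired analysis was possible because each group has 1 library, and no library could be left out for the same reason. The number of genes past 2-fold moved with the limit on low counts. In Radiation against Control it was 1016, against 448 with 20 predicted UMIs, 1908 with no low-count filter and 496 in cells of 6500 to 15000 UMIs. In Drug_Radiation against Drug it was 1331, against 398, 2655 and 602 in the same order. In Drug against Control it was 2362, against 1561 with 20 predicted UMIs, 14188 with no filter, 1146 with TMM and 1124 with median-of-ratios scaling. In Drug_Radiation against Radiation it was 1339, against 678 and 12778, and in Drug_Radiation against Control 1885, against 1207, 15044 and, with median of ratios, 1201. The split of higher and lower genes moved with scaling, from 588 and 428 to 471 and 518 with TMM in Radiation against Control, 494 and 837 to 703 and 500 in Drug_Radiation against Drug, 1998 and 364 to 573 and 573 in Drug against Control, 1017 and 322 to 734 and 386 in Drug_Radiation against Radiation, and 1513 and 372 to 791 and 498 in Drug_Radiation against Control. With median of ratios these splits were 484 and 505, 670 and 552, 528 and 596, 598 and 418, and 665 and 536. TMM brought the median log2 ratio of all genes in Drug against Control from 0.49 to 0.09. Members past 2-fold in Drug_Radiation against Drug numbered 1, against 2 with TMM and with median of ratios (DRD3 higher joined DRD2), 0 in cells of 6500 to 15000 UMIs and 0 with 20 predicted UMIs. With no low-count filter they numbered 1 instead of 0 in Radiation against Control, 3 in Drug against Control, 5 in Drug_Radiation against Radiation and 3 in Drug_Radiation against Control. Counts under 3 were still raised to 3 there, so a rare gene can be called lower in the deeper library by this floor alone. DRD2 was called lower in Drug_Radiation against Control from 11 and 0 UMIs. Of the 14188 genes in Drug against Control, 12130 were lower. Such calls say nothing about the genes. Among the 5 in Drug_Radiation against Radiation was DRD3, lower from 39 UMIs in Drug_Radiation and 12 in Radiation (ratio 0.329, 0.169 to 0.690). Without cells of 3 or more DRD3 UMIs the ratio was 1.16 (0.288 to 10.2) from 23 and 2 UMIs, so its direction turned. In Control, members with 3 UMIs or more numbered 4, against 2 in cells of 6500 to 15000 UMIs and 2 with a floor of 10 UMIs, and those above the olfactory receptor limit 6, against 3 in that depth range. With the 99th percentile that number was 3 in Radiation (6 at the 95th) and 4 in Drug (7). Over the alternatives the log2 ratio of HTR1D ran from 0.22 to 0.64 in Drug against Control and from 0.31 to 0.51 in Drug_Radiation against Radiation, positive in all 6 alternatives of each, and that of HRH1 from 0.29 to 0.72 and from -0.18 to 0.18. Depth limits every statement on the 8 rarer genes in Control and Radiation.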

Other observations

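Cells rich in mitosis-gene UMIs were looked at after the other results were seen. In cells with at least 0.2% of their UMIs in 14 mitosis genes, a range of a score rather than a cell type, HRH1 had 13.1 CPM (10.4 to 16.1) in Drug (236 cells) and 11.7 CPM (8.80 to 15.3) in Drug_Radiation (195 cells), against 15.8 CPM (15.0 to 16.7) and 13.1 CPM (12.5 to 13.7) in the remaining cells. HTR1D had 11.7 CPM in these cells of both libraries (9.23 to 14.6 and 8.80 to 15.3), against 14.1 CPM (13.3 to 15.0) and 14.9 CPM (14.3 to 15.6). All 4 of these values were lower in the mitosis-rich cells, and all 4 pairs of intervals overlapped. Control went the other way for HTR1D, with 11.8 CPM from 8 UMIs against 8.71 CPM in its remaining cells. In Control, Radiation, Drug and Drug_Radiation, 104, 59, 131 and 162 cells lay near the limit.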
